A study of Drosophila melanogaster with 2 samples.

Results

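The genes described here carry pyruvate into the mitochondrion's central pathway and around it, and were taken as a fixed list of 9 of the 13945 protein-coding genes on the 6 chromosome arms used. They are Pdha and Pdk at the entry step, the cycle enzymes kdn, mAcon1, Idh3a, SdhA, Fum1 and Mdh2, and the nuclear receptor gene ERR. Binding of Sima, the fly HIF-alpha protein, was mapped by ChIP-seq in whole Drosophila melanogaster embryos aged 0 to 24 h, both sexes together, from a transgenic line with a stable insertion that expresses sima-RB tagged C-terminally with GFP. Chromatin was sonicated to 200 to 800 bp and precipitated with an antibody against GFP. The 2 samples were biological replicates 1 and 2 of this single group, so no second genotype, age or oxygen level was available for comparison. The labels used here give neither the promoter of the transgene nor the oxygen level, and a whole-embryo signal cannot be assigned to a tissue. What the authors deposited is a signal value for each enriched region, from their peak caller. Each of the lists for replicate 1, replicate 2 and the pooled reads held 30000 regions, and the list passing the irreproducible discovery rate (IDR) held the 1272 strongest of the pooled list. Read depth is unknown. A region was assigned to a gene when its summit lay in the gene body or up to 2000 bp outside it, and its strength is given as its rank in the list (1 is strongest) and as the ratio of its signal to the median signal of that list.

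Pyruvate, the end product of glycolysis, is turned into acetyl-CoA by the pyruvate dehydrogenase complex. Pyruvate dehydrogenase kinase phosphorylates the alpha subunit of this complex and switches it off. The acetyl group is then oxidised in the tricarboxylic acid (TCA) cycle, which feeds electrons to the respiratory chain. In mammalian cells HIF raises transcription of a pyruvate dehydrogenase kinase gene under low oxygen, which limits the conversion of pyruvate to acetyl-CoA. In Drosophila, ERR drives the embryonic rise of glycolytic gene expression and is known to bind Sima.

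Sima regions of the IDR list were found at 2 of the 9 genes, Fum1 (fumarase) and mAcon1 (mitochondrial aconitase). In both cases a start site of the gene was less than 500 bp from the summit, with a rank of 194 at Fum1 and 359 at mAcon1. The next gene was ERR, whose strongest region had rank 1893 and lay outside the IDR list, which ended at a ratio of 2.76. The strongest regions then followed at Mdh2 (rank 3283), Pdk (4944), Idh3a (5536), SdhA (7171), kdn (7500) and Pdha (28180). Of all protein-coding genes, 13.0% had an IDR summit in the same window, against 22.2% of the 9, and 1 gene fewer would give 11.1%. At this distance from a start site the background was 6.22% of all genes, again against 2 of 9. The median of the best pooled rank was 4944 for the 9 genes and 9129 for all protein-coding genes, with genes without a region counted as 30001. The median gene length was 3422 bp for the 9 genes and 2166 bp for all genes, and the part of length in the ranks was not tested. Within 500 bp of a start site, 7 of the 9 genes (77.8%) had a pooled region, against 48.0% of all genes. Over all 9, with genes without such a region counted as 30001, the median best rank at that distance was 9397. Most protein-coding genes had no region there.

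**Figure D1:**
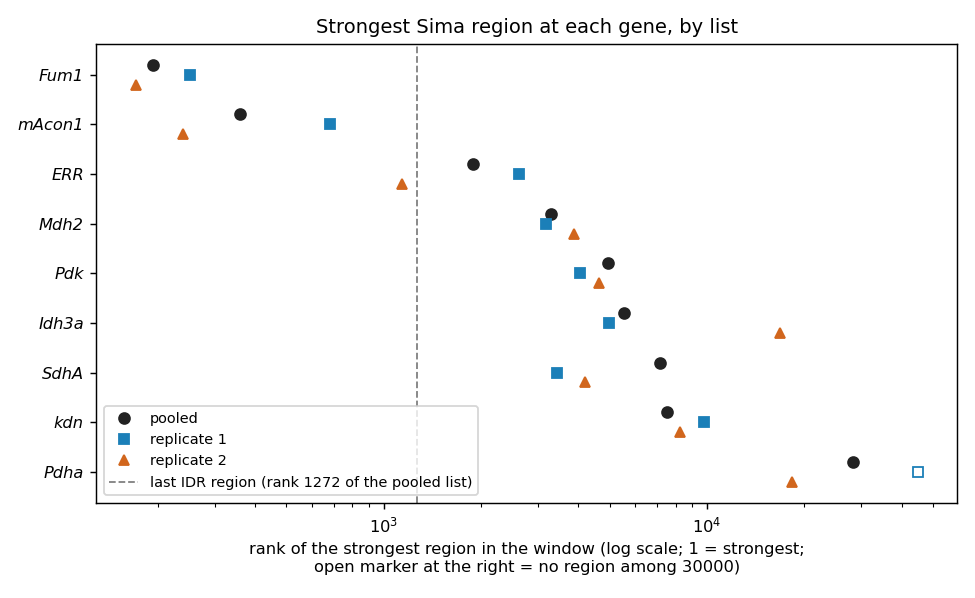
Rank of the strongest region in each gene's window (log axis, 1 strongest) in the pooled list (circles), replicate 1 (squares) and replicate 2 (triangles), with a dashed line at the last IDR region; an open marker stands for no region. Fum1 and mAcon1 lie left of the line in every list, with ranks from 171 to 682, and ERR lies left of it in replicate 2 alone (rank 1140). The markers of a gene can stand for different sites. At Pdk the marker of replicate 2 (rank 4632) is a region in the neighbour ced-6.

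Fum1 encodes fumarase, which hydrates fumarate to malate. Its IDR region was located in both replicates, at rank 251 with a ratio of 4.52 in replicate 1 and at rank 171 with a ratio of 7.08 in replicate 2 (mean 5.80 ± 1.81, SD, n = 2). The summits of the replicates lay 19 bp upstream of the pooled summit in replicate 1 and 6 bp downstream of it in replicate 2. Both replicates placed a strong region at the same site, and 93.2% of the IDR list was likewise matched in both. Because the IDR list is filtered on agreement between replicates, such a match is partly built into it. Fum1 (X 6678424 to 6681845, plus strand) has 2 annotated start sites, 1216 bp apart, and the summit lay in an intron of the longer transcript, 263 bp upstream of the internal start. It also lay 259 bp upstream of the outermost start of ND-ASHI, which encodes a subunit of respiratory complex I and is transcribed the other way. The region cannot be assigned to either gene alone. At the outer start of Fum1 the pooled list held a region of rank 21896, matched in neither replicate, while replicate 2 had a region of rank 2881 with a ratio of 1.79, 94 bp upstream of that start. The sequence around the summit is shown because it carries the strongest region of the 9 genes. It is 120 bp to each side of the summit at chrX:6679257-6679497, dm6, plus strand, with the summit at base 121. Capitals would mark ACGTG or GCGTG, the core bound by HIF heterodimers, on either strand, and it holds none.
Fum1: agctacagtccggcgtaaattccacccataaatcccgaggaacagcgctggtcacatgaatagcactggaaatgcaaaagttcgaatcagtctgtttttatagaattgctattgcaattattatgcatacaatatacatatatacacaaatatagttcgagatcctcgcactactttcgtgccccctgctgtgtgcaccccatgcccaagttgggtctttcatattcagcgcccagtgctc

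Aconitase, encoded by mAcon1, isomerises citrate to isocitrate with an iron-sulfur cluster. Its IDR region had rank 682 and a ratio of 2.99 in replicate 1, and rank 240 and a ratio of 6.18 in replicate 2 (mean 4.58 ± 2.26, SD, n = 2). The summit lay 99 bp upstream of the first start of mAcon1 (2L 21168570 to 21173185, plus strand), in the 5' UTR of CG43345 and CG43346. These genes share starts and run away from mAcon1 on the other strand, so this region too has starts of several genes within 500 bp. A further pooled region overlapped the first, with its summit 23 bp downstream of a start of mAcon1. It had rank 29965 in the pooled list, but its nearest replicate regions had rank 4623 and a ratio of 1.52 in replicate 1 and rank 966 and a ratio of 3.16 in replicate 2 (mean 2.34 ± 1.16, SD, n = 2). The pooled rank of this second region was therefore far below its rank in either replicate. Because the summit falls in a UTR, the sequence printed is limited to the 30 bases around it (chr2L:21168456-21168485, dm6, plus strand, summit at base 16), and the HIF core is not among them.
mAcon1: ttcgatttaagttttaacgccatagagtcc

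**Figure D2:**
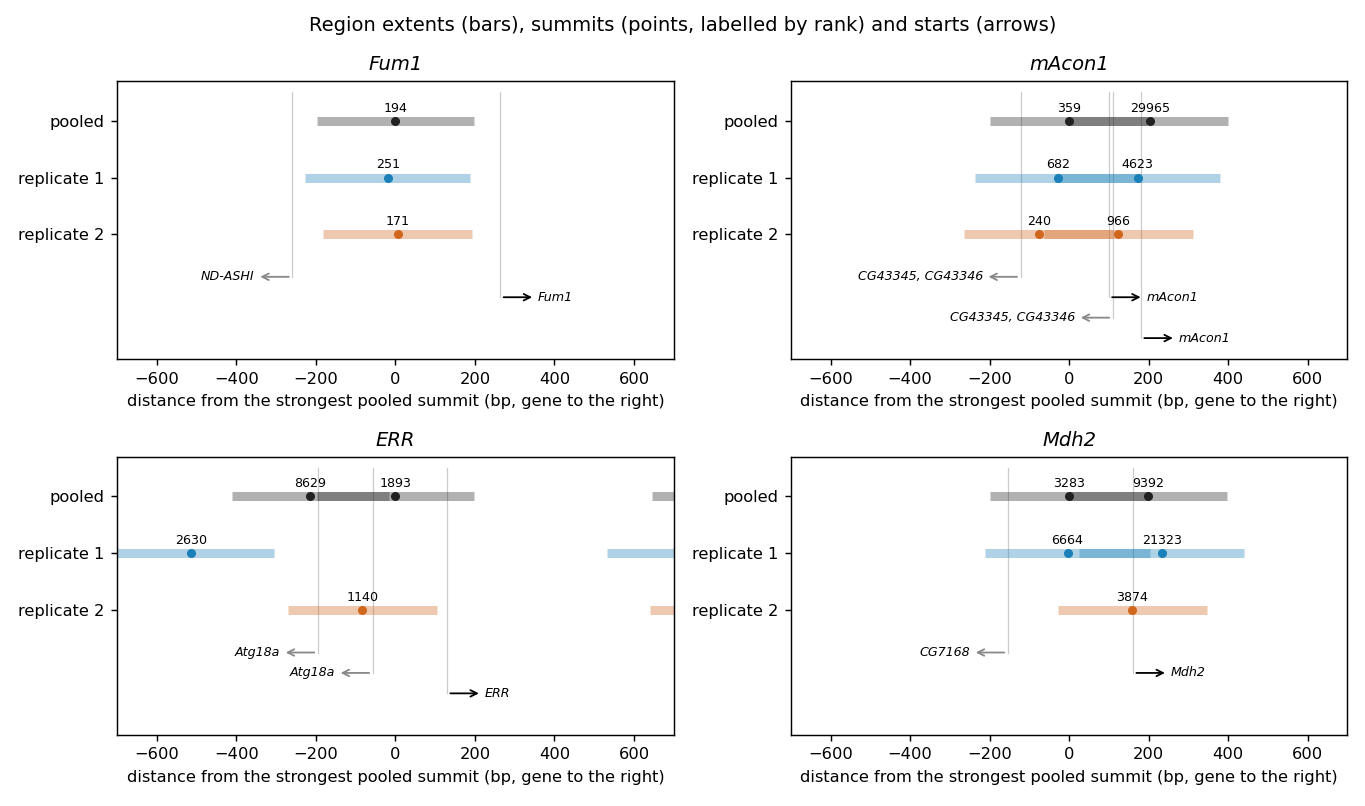
Extents (bars) and summits (points, labelled by rank) of regions in the pooled list and each replicate around the strongest pooled summit of 4 genes, with distance in bp on the horizontal axis and each gene drawn to the right; arrows are annotated starts. At Fum1 the 3 lists share 1 site between opposite starts, whereas at ERR replicate 1 has its nearest region 513 bp from the pooled summit.

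Mdh2, the mitochondrial malate dehydrogenase that closes the cycle, had its strongest region at rank 3283 with a ratio of 1.76, outside the IDR list. The summit lay in the intergenic stretch 160 bp upstream of its single start (3R 18226396 to 18228718, plus strand) and 154 bp upstream of CG7168 on the other strand. Replicate 1 had a region 4 bp away (rank 6664, ratio 1.35), while the nearest in replicate 2 was 159 bp away (rank 3874, ratio 1.59), 1 bp upstream of the Mdh2 start. A second pooled region, overlapping the first, had its summit 39 bp downstream of the start (rank 9392), with ratios of 0.859 in replicate 1 and 1.59 in replicate 2 (mean 1.23 ± 0.518, SD, n = 2). Another, of rank 5466 within the coding sequence of CG7168, had ratios of 0.795 in replicate 1 and 1.35 in replicate 2 (mean 1.07 ± 0.395, SD, n = 2). Both replicates thus had regions around the Mdh2 start, none of them more than 1.59 times the median of its list. For kdn, which encodes citrate synthase, the entry enzyme of the cycle, the strongest region was intronic, 1622 bp downstream of the internal start (X 6350629 to 6361323, plus strand). It had rank 7500, with ratios of 0.760 in replicate 1 and 1.05 in replicate 2 (mean 0.907 ± 0.208, SD, n = 2). At the outer start of kdn the pooled region had rank 25190 and a ratio of 0.802, matched in replicate 1 alone, with its summit 180 bp upstream of kdn and 48 bp upstream of ND-B16.6, another complex I subunit gene. The promoter stretches of both genes are shown. That of Mdh2 (chr3R:18226116-18226356, dm6, plus strand, summit at base 121) holds no core. That of kdn (chrX:6350402-6350569, dm6, plus strand, summit at base 48) holds ACGTG 2 times, in capitals, beside the weaker region. Only the first of these lies within 50 bp of the summit. The stretches have 241 (Mdh2) and 168 (kdn) bases, so their counts do not compare like with like.
Mdh2: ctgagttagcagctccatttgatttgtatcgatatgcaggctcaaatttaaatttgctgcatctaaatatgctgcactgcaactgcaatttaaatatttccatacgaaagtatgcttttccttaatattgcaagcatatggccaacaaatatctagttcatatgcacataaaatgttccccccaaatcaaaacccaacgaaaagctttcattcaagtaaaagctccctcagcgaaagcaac
kdn: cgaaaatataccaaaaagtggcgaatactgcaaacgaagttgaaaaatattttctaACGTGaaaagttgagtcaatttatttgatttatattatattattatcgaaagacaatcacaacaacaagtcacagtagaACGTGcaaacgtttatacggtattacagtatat

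Idh3a encodes the alpha subunit of the NAD-dependent isocitrate dehydrogenase (X 19518428 to 19521810, minus strand). No region of any list lay within 500 bp of its start sites. The strongest in the pooled list was intronic, 754 bp downstream of a start, at rank 5536 with a ratio of 1.45. It was matched in replicate 1 (rank 4974, ratio 1.49), and the nearest region of replicate 2 lay 2027 bp away. The other pooled region in the window, at rank 18481, lay in the 5' UTR of CoRest, the neighbour on the other strand that encodes a chromatin corepressor.

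SdhA, the flavoprotein subunit of succinate dehydrogenase (2R 19391863 to 19395971, minus strand), had 7 pooled regions in its window, and none was matched in both replicates. The strongest, at rank 7171 with a ratio of 1.31, lay 1132 bp upstream, in the 3' UTR of hts and 331 bp upstream of cer. It was matched in replicate 2 (rank 4179, ratio 1.55), and the nearest region of replicate 1 lay 229 bp away. The region nearest to the SdhA start lay 111 bp upstream of it at rank 11820, was matched in replicate 1 at rank 8602 and had no match in replicate 2. Pdk, the pyruvate dehydrogenase kinase (2R 9426439 to 9434638, plus strand), had 9 pooled regions, the most of any of the 9 genes. It is the longest but 1 of these genes, at 8200 bp, while kdn, the longest at 10695 bp, had 5. The strongest was intronic, 2247 bp downstream of the single start, at rank 4944, with ratios of 1.58 in replicate 1 and 0.787 in replicate 2 (mean 1.19 ± 0.563, SD, n = 2). The region at the start itself, 11 bp downstream of it in the 5' UTR, had rank 9397 and a ratio of 1.19. It was matched exactly in replicate 1 (rank 8677, ratio 1.23), whereas the nearest region of replicate 2 lay 649 bp away. Replicate 1 had 11 regions in the Pdk window and replicate 2 had 6, and the replicates located only the intronic site together. The strongest of replicate 2 (rank 4632, ratio 1.49) lay in the coding sequence of the neighbour ced-6, 9541 bp downstream of the Pdk start. 

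Pdha, the alpha subunit of the pyruvate dehydrogenase enzyme that Pdk phosphorylates, had the weakest best region of the 9 genes (X 4702284 to 4705265, plus strand). The 2 pooled regions had ranks 28180 and 28344, with ratios of 0.761 and 0.758, close to the end of the list. The first lay 575 bp upstream, in the 3' UTR of ctp, and had no match in either replicate. The second lay in the coding sequence of CG7024 and was matched in replicate 2 alone (rank 18318, ratio 0.924). Replicate 1 had 0 regions in the window, and no list had a region within 500 bp of a start of Pdha.

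ERR, which encodes the estrogen-related receptor (3L 8183361 to 8186671, minus strand), had a region among the 1272 strongest of replicate 2 but not of replicate 1. Its strongest pooled region (rank 1893, ratio 2.27) had its summit 129 bp upstream of the outer start and 57 bp upstream of Atg18a, an autophagy gene on the other strand. Replicate 2 had a region 83 bp away at rank 1140 with a ratio of 2.89, inside its own top 1272. Replicate 1 had no region within 100 bp, and its nearest was 513 bp away, at rank 2630 with a ratio of 1.82. A second pooled region (rank 2978, ratio 1.84) lay 287 bp upstream of the internal start, in an intron. It was matched in replicate 2 at rank 2367 (ratio 1.95), and the nearest region of replicate 1 lay 103 bp away, just past the matching distance, at rank 15730 (ratio 0.981). Another pooled region, 344 bp upstream of the outer start and in the 5' UTR of Atg18a, had rank 8629 and was matched in neither replicate. None of the ERR regions was thus matched in both replicates.

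The windows of the 9 genes held 40 regions of the pooled list, 45 of replicate 1 and 30 of replicate 2. The pooled density was 5.06 regions per 10 kb of window, against 2.88 over the windows of all protein-coding genes. It was 5.69 against 2.95 in replicate 1 and 3.80 against 2.68 in replicate 2. All 9 genes had at least 1 pooled region in the window, as did 80.4% of all protein-coding genes. Beside the 2 IDR regions, the other 38 had ratios from 0.737 to 2.27. Of the 40 summits, 16 (40.0%) lay within 500 bp of an annotated start, against 28.1% of all pooled regions. The 40 were picked for lying in or near a gene, unlike the full list, so these shares do not compare like with like. Of the 40, 13 lay that close to a start of the listed gene itself. There were 11 summits in introns, 9 in coding sequence, 7 in 5' UTRs, 6 in 3' UTRs and 7 between genes. In 8 of the 9 windows another gene also starts, Pdk being the exception, and regions near such a start cannot be assigned to 1 gene.

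**Figure D3:**
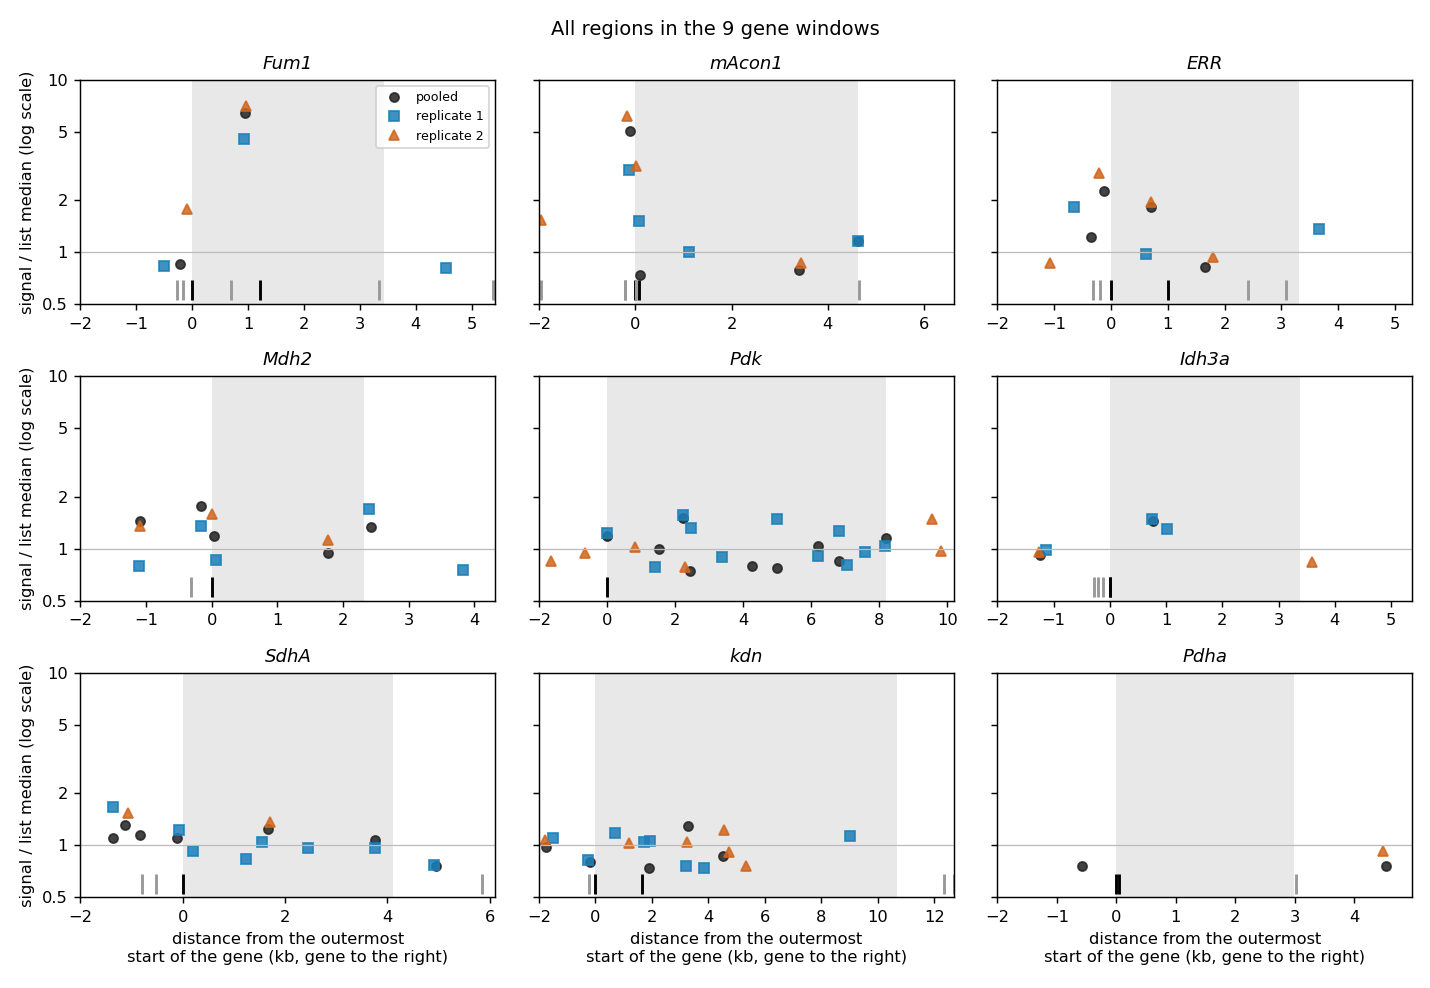
Every region in the 9 windows, by distance of its summit from the outermost start (kb, gene to the right) and by the ratio of its signal to the list's median (log axis); grey areas are gene bodies, and black and grey ticks are starts of the gene and of its neighbours. Only Fum1 and mAcon1 have pooled regions with a ratio above 2.27.

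Most regions were not located in both replicates. Of the 40 pooled regions, 7 (17.5%) had a summit within 100 bp in both replicates, against 23.1% of all pooled regions. A further 16 (40.0%) were matched in replicate 1 alone, 10 (25%) in replicate 2 alone and 7 (17.5%) in neither, and over all pooled regions these shares were 35.2%, 24.3% and 17.4%. The 7 regions lay at Fum1, mAcon1 (2), Mdh2 (2), Pdk and kdn, so 5 of the 9 genes (55.6%) had such a region, beside 43.4% of all protein-coding genes. Both IDR regions were matched, as were 93.2% of the IDR list. In 6 of the 7 the ratio was higher in replicate 2, and the region in the Pdk intron was the exception, with a log2 ratio of replicate 2 over replicate 1 of -1.01. The median log2 ratio was 0.77 for the 7 regions and 0.47 over the 1186 matched IDR regions (SD 0.71), so most of these IDR regions leaned the same way. Only 2 of the 7 are in the IDR list, so the 2 medians do not compare like with like. With 2 samples of 1 group no test across samples was possible.

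**Figure D4:**
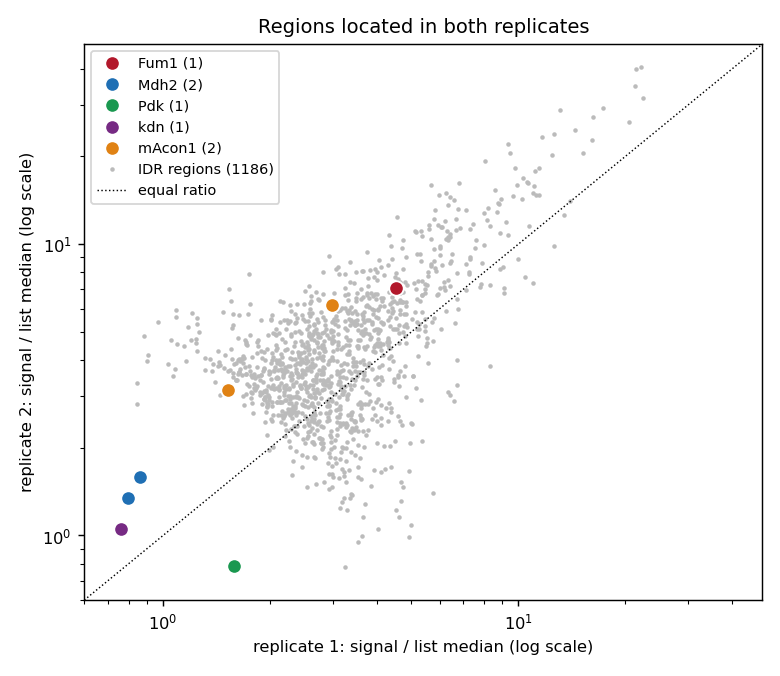
Ratio of signal to list median in replicate 1 (horizontal) and replicate 2 (vertical), both on log axes, for the 7 regions of the 9 genes found in both replicates (coloured, number per gene in brackets) and the 1186 matched IDR regions (grey dots). The Fum1 region and the stronger mAcon1 region are themselves IDR regions. The regions of Mdh2, kdn and Pdk, outside that list by their lower pooled signal, lie below the cloud at ratios between 0.760 and 1.59.

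The HIF core (ACGTG or GCGTG on either strand) stood within 50 bp of the summit in 8 of the 40 pooled regions (20.0%), against 19.4% of all pooled regions and 13.3% of IDR regions. Pdk and kdn each had 3 of these, and Mdh2 and SdhA 1 each. Neither IDR region had it, nor any region of ERR. The share was thus close to that of the whole list. The count depends on the exact summit. The second mAcon1 region lacked the core at its pooled summit, but its matches in replicate 1 (rank 4623) and replicate 2 (rank 966) had it. The kdn region of rank 25190 had it, but its replicate 1 match (rank 23433) did not. Of the 3 at Pdk, 1 was the region at its start and 1 the intronic region found in both replicates. The sequence AAGGTCA, the core site of ERR proteins, was searched on either strand in the same way after the values were seen. It was in 0 of the 40 windows and in 0.950% of all pooled ones. The 101 bases around the 40 summits had a median G+C content of 42.6% and ranged from 20.8% to 66.3%, against a median of 40.6% over the pooled list. At the 2 IDR regions it was 29.7% (Fum1) and 30.7% (mAcon1), against a median of 33.7% over the IDR list.

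A further 27 genes, listed by role, covered pyruvate and citrate carriers, the pyruvate dehydrogenase complex, the TCA cycle and adjoining enzymes. The adjoining enzymes were ATP citrate lyase, pyruvate carboxylase, malic enzymes, cytosolic malate dehydrogenase and NADP-dependent isocitrate dehydrogenase. Of the 27, 6 had an IDR summit in the window (22.2%), against 13.0% of all genes. Within 500 bp of a start, 4 had one (14.8%), against 6.22% of all genes. Those near a start lay at Idh3g, at 2 genes of the mitochondrial pyruvate carrier, which brings pyruvate through the inner membrane, and at the citrate carrier gene. At CG9399, a carrier subunit gene, the region had rank 211, with ratios of 4.64 in replicate 1 and 5.94 in replicate 2 (mean 5.29 ± 0.919, SD, n = 2). At Mpc1, the other subunit gene, it had rank 1199, with ratios of 2.72 in replicate 1 and 2.42 in replicate 2 (mean 2.57 ± 0.212, SD, n = 2), but its summit lay 43 bp from CG42613 and 494 bp from Mpc1. Both of these regions were matched in both replicates. In replicate 1, however, the match of the Mpc1 region (rank 866) lay more than 500 bp from the Mpc1 start. The best replicate 1 region within that distance had rank 18307. At sea, the citrate carrier gene, the region had rank 251, with ratios of 4.61 in replicate 1 and 4.96 in replicate 2 (mean 4.79 ± 0.250, SD, n = 2). Idh3g, the gamma subunit of isocitrate dehydrogenase, had a region 74 bp upstream of its start at rank 979 (mean ratio 2.69 ± 0.414, SD, n = 2) and another at rank 694 in its window, which lay 20 bp from the start of RpL27, a ribosomal protein gene. The regions in the windows of ATPCL (ATP citrate lyase, rank 87) and SdhD (a membrane anchor subunit of succinate dehydrogenase, rank 114) lay at starts of other genes, CG8320 and Pex11ab beside ATPCL and Hrd3 and PTPMT1 beside SdhD. The remaining 21 genes had no IDR region, and their best pooled ranks began at 1389 (Ogdh, the first enzyme of the 2-oxoglutarate dehydrogenase complex) and 1706 (Pdhb, the beta subunit partner of Pdha). CG7430 and Fum2, a fumarase paralog next to Fum1, had no pooled region in the window. A region matched in both replicates was present at 18 of the 27 genes (66.7%), beside 43.4% of all genes.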

How the data were processed

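Both samples are biological replicates of 1 group. The authors deposited region lists in narrowPeak layout on dm6 and dm3. Each holds a signal value per region from the authors' peak caller, whose name, version and scaling no source used here gives. Per the text notes deposited beside the lists, relaxed lists were called against 1 control file for each replicate and for the pooled reads, and the IDR list was derived from them. Read numbers are not given, so depth and its precision are unknown. The IDR list was checked to equal the 1272 strongest pooled regions. The dm3 lists were not used here.

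Gene models came from Ensembl release 115 (BDGP6.54), and sequence from NCBI RefSeq's Release 6 assembly, which shares dm6 coordinates. All pooled regions fitted its arms, and all listed genes had equal coordinates in both annotations. All 9 members matched by symbol, as did the 27 other genes except CG7430 (listed as Dld), matched by locus tag. Ranks, ratios to the list's median, matches of summits within 100 bp and distances to annotated starts were computed with pandas 2.3.3 and numpy 2.4.6 under Python 3.11.15, and plotted with matplotlib 3.10.9. Start sites of transposable elements were left out. The counting steps were tested on simulated data.

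The members and lists were chosen with earlier results of these data known. Every member is named, with its IDR regions and best pooled region. Of the other genes, those with an IDR summit are named, and 4 others were chosen after their values were seen. No test was made, as there is 1 group of 2 samples. Alternatives covered the flank, distances, matching, the list and each replicate alone. The sequence at the ERR region is not reported here.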

Additional observations from a re-analysis of the deposited data

How the results depend on the processing

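Of 39 alternatives, 27 left the value near the one reported (counts and ranks within 1.5 times). These include the log2 ratio of replicate 2 over replicate 1 at member regions, which kept its sign but not its size. It was 0.37 instead of 0.77 with the median of matched IDR regions in place of the list median. With no flank, 1 gene instead of 2 had an IDR summit (Fum1, since the mAcon1 summit lies outside its gene; 11.1%, against 4.55% of all genes), the windows held 22 regions and the median best rank was 7500, against 29915 for all genes. A flank of 5000 bp kept 2 genes (22.2%, against 19.6%) and gave a median best rank of 3283 against 5130, and regions within 500 bp of a start alone gave 9397. Only 1 gene had an IDR summit within 250 bp of a start (mAcon1; 11.1%, against 4.85%), and 1 within 500 bp of its outermost start (against 5.26%). Matching summits within 50 bp left 4 regions found in both replicates (10%, against 14.5% of all pooled regions), and within 200 bp it gave 12 (30%, against 32.7%). The core was found in 16 regions within 100 bp of the summit (40.0%, against 35.1%), in 3 with ACGTG only (7.5%, against 8.43%), and in 2 of the 7 regions matched in both replicates (28.6%, against 18.6%).

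With each replicate alone, 2 to 3 genes had a summit among the 1272 strongest regions, in the window and near a start, the third being ERR without replicate 1. The share of all genes by this rule was not counted, so these counts have no background. The windows then held 30 to 45 regions. The median best rank was 3447 in replicate 1 and 4179 in replicate 2, against 9063 and 9047 for all protein-coding genes. Merging overlapping regions and matching each replicate region once were chosen after seeing the data, and gave 34 regions and 7 matches. No paired analysis was possible because there is 1 group. Unknown depth limits what the absence of a region shows.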
